A study of Macaca mulatta with 12 samples.

Results

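The lateral geniculate nucleus on the ipsilateral side of monocularly deprived rhesus macaques was sampled layer by layer, and the 6 arrays made from it were compared by deprivation. Per the labels, layers 2, 3 and 5 were deprived and layers 1, 4 and 6 were not, which gave 3 samples against 3. These were the 6 arrays of 12 whose labels named the ipsilateral nucleus, and the other 6 came from the same layers of the contralateral nucleus, where layers 1, 4 and 6 were the deprived ones. Layers 1 and 2 were taken as magnocellular and layers 3 to 6 as parvocellular, so that each ipsilateral group held 1 magnocellular and 2 parvocellular layers. All 12 samples came from monocularly deprived animals, and no sample of an animal with both eyes open was among them. The sources used here did not give the number of animals, their age, which samples shared an animal, or how and for how long the eye was deprived. Each p-value below therefore rests on the spread between layers, which may be partly technical, and is too small for a statement about animals wherever layers came from the same one.

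The lateral geniculate nucleus is the thalamic relay from the retina to the primary visual cortex. In the macaque each of its layers receives input from a single eye. Layers 1, 4 and 6 are driven by the eye of the opposite side, and layers 2, 3 and 5 by the eye of the same side. Within 1 hemisphere deprivation and eye of input are therefore the same split of the layers and cannot be told apart. Magnocellular layers hold large relay neurons tuned to motion and low contrast, parvocellular layers hold smaller relay neurons tuned to fine detail and colour, and both hold inhibitory interneurons, glia and myelinated axons. Depriving 1 eye early in life is known to shrink the relay neurons of the layers that eye drives.

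The tissue was checked against its defining markers. SLC17A6, the vesicular glutamate transporter of thalamic relay neurons, had intensities from 26159 to 42638 over the 6 arrays, and TCF7L2, a transcription factor of the thalamus, from 59388 to 79019. GAD1, the GABA-synthesising enzyme of the interneurons, ranged from 20048 to 38124. Of 16 relay neuron markers, 10 were measured, that is, on the array with a mean over all 12 arrays at or above the median probe set. The sum of those 10 was 211500 to 243600 in the deprived and 230200 to 284600 in the non-deprived layers.

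RNA quality differed among the 6 arrays. The 3'/5' ratio of the GAPDH control probe sets, which increases where RNA is degraded or incompletely copied, was 9.38, 2.87 and 11 in the deprived layers 2, 3 and 5. In the non-deprived layers 1, 4 and 6 it was 5.04, 5.65 and 2.88. Layers 2 and 5 were thus the highest, both were deprived, and the third deprived layer was the lowest of the 6. Contralateral arrays ranged from 2.21 to 4.09. The group means were 7.75 ± 4.30 deprived and 4.52 ± 1.46 non-deprived (SD, n = 3 each), a difference within the spread (exact permutation test, two-sided, p = 0.4; the smallest p that 3 against 3 allows is 0.1). The same ratio for ACTB was 62.9, 20.3 and 24.4 in layers 2, 3 and 5 and 54.7, 43.9 and 31.9 in layers 1, 4 and 6. By ACTB layer 2 was again high, but layer 5 lay below all 3 non-deprived layers. The ACTB means were 35.9 ± 23.5 deprived against 43.5 ± 11.4 non-deprived (exact permutation test, p = 0.7). The median intensity of an array was 637 ± 34.7 against 535.5 ± 92.0 (exact permutation test, p = 0.2). Over the 6 such comparisons made in both hemispheres the adjusted p was 0.9 for each. Layer 2 stood apart most: its mean correlation with the other ipsilateral arrays was 0.863, against 0.899 to 0.912 for the other 5, and it held the highest of the 6 values in 21.8% and the lowest in 23.5% of probe sets. The part of RNA quality in the differences below was not tested. The gene lists below are also given without layers 2 and 5, which were chosen by the GAPDH ratio alone. In that setting layer 1 is the lone magnocellular array and adds nothing to the change. Those values therefore compare layer 3, as the only deprived array, with the mean of layers 4 and 6.

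**Figure D1:**
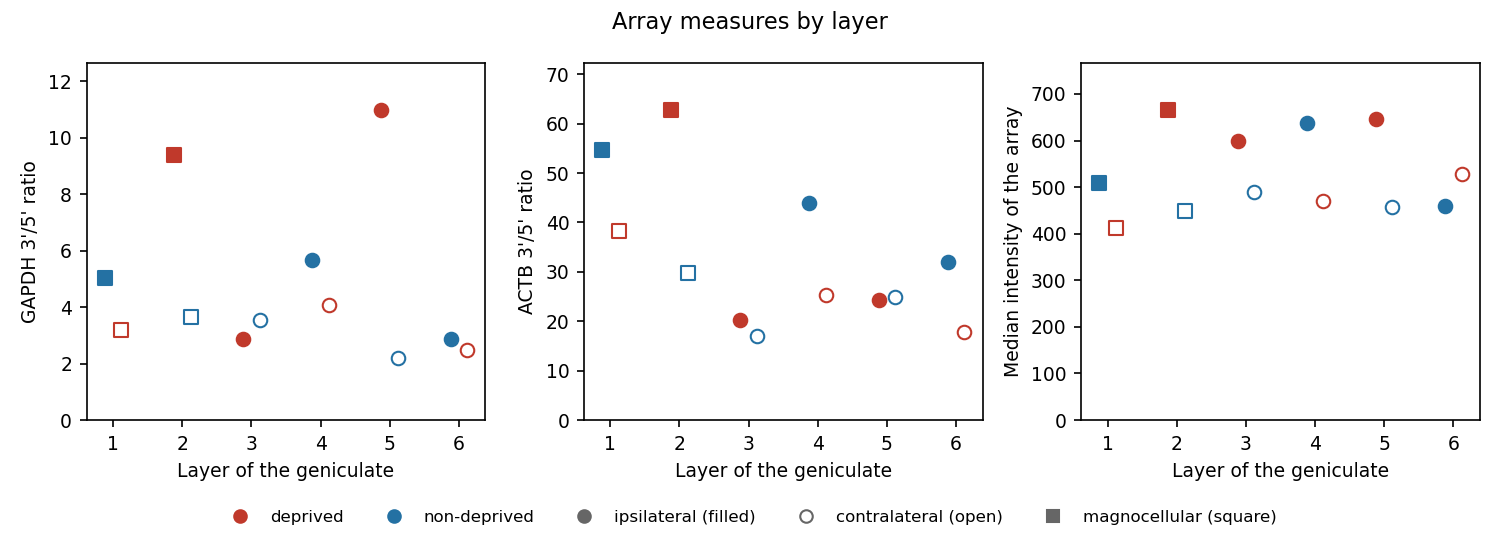
Each point is 1 array, by layer (x axis), with the GAPDH 3'/5' ratio, the ACTB 3'/5' ratio and the median intensity of the array on the y axes (linear, from 0). Red marks deprived and blue non-deprived layers, filled points the ipsilateral and open points the contralateral side, squares magnocellular layers; the ipsilateral layers 2 and 5 have GAPDH ratios of 9.38 and 11, above all other arrays.

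The comparison asked which transcripts differed between deprived and non-deprived layers of this hemisphere. No probe set passed the threshold of adjusted p under 0.05 (limma, 0 of 11105, 0%; smallest adjusted p 0.417), and 699 reached an unadjusted p under 0.05, against 555.2 for the number tested multiplied by 0.05. Of these, 334 were higher and 365 lower in the deprived layers. Log2 changes (deprived minus non-deprived) ran from -2.35 to 2.2, and the middle 50% lay between -0.217 and 0.313. The 3 deprived values lay above all 3 non-deprived values in 746 probe sets (6.72%) and below them in 542 (4.88%). In bulk samples such as these, fewer cells of a type and less RNA per cell cannot be told apart.

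The balance of higher and lower values depended on how the arrays were scaled. The arrays had been deposited with equal trimmed means, and the median change over 7285 genes, with 1 probe set each, was 0.0477. Centring each array on its median instead moved that median to -0.215, and the share of higher values among unadjusted calls from 47.8% to 6.76%. With quantile normalization the median was -0.0131 and the share 41.4%. After median centring 28.6% of all genes had a positive change, against 55% as deposited, so the counts by sign given below for that setting hold a shift common to all genes. The medians of most lists are therefore also given relative to the median of all genes.

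Among the genes with the smallest p, PCGF1 was the lowest in deprived layers, and CLDN15, IGF1 and MOBP were among the higher ones. None of the 24 genes described next passed (limma, adjusted p from 0.417 to 0.7). They were taken from this same contrast as the 12 smallest p in each direction without overlap between the groups, so their changes are a description. The lower 12 differed 0.215- to 0.499-fold and the higher 12 by 1.79- to 4.31-fold.

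PCGF1, a subunit of a Polycomb complex that represses transcription, had intensities of 379.3, 785.5 and 419.3 in the deprived layers 2, 3 and 5. In the non-deprived layers 1, 4 and 6 it had 2670, 2218 and 2122. All 3 deprived layers lay far below the non-deprived ones, and layer 3, the one with a low GAPDH ratio, was the highest of the deprived. The log2 change was -2.22 ± 0.37 (SE, n = 3 each; limma adjusted p = 0.417), and a second probe set of the gene had -0.60. Without layer 3, PCGF1 passed (-2.56, limma adjusted p = 0.0277), with layer 6 and layer 4 as the non-deprived parvocellular samples and layer 5 alone as the deprived one.

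KCNH2, a voltage-gated potassium channel, had 1983, 1318 and 2173 in layers 2, 3 and 5 and 5266, 5720 and 4371 in layers 1, 4 and 6. The deprived values were lower in both cell classes, with a change of -1.51 ± 0.30, but its other probe set had 0.26. ANK1, an ankyrin that ties membrane proteins to the spectrin skeleton, had 1832, 3412 and 3984 deprived and 7721, 8823 and 6860 non-deprived. Its change was -1.41 ± 0.30, and its other 5 probe sets had changes from -1.09 to -0.27. The lowest value was that of layer 2. SYBU, or syntabulin, which links kinesin to cargo on its way along the axon, had 8820, 7905 and 6607 deprived and 23990, 16190 and 13360 non-deprived. These deprived values were close together, while the magnocellular layer 1 was the highest of the non-deprived.

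Membrane traffic, transcription and metabolism were represented among the remaining lower genes. VPS52, a subunit of a complex that tethers vesicles returning from endosomes to the Golgi, had a change of -1.74 ± 0.38. DKK3, a secreted protein of the Dickkopf family, had 9554, 4716 and 3570 in layers 2, 3 and 5 and 16440, 9924 and 11960 in layers 1, 4 and 6. Its groups only just separated, layer 2 lying close under layer 4, and its 2 other probe sets had -0.13 and -0.37. USF2, a basic helix-loop-helix transcription factor, had a change of -1.73 ± 0.39, with -1.05 and -0.35 in its other probe sets. RITA1, which binds the Notch effector RBPJ and tubulin, had a change of -2.16 ± 0.50, but 0.09 in its other probe set. GGCT, an enzyme of glutathione breakdown, had 15120, 11270 and 9605 deprived against 34760, 17160 and 22080 non-deprived. STAR, which carries cholesterol into mitochondria, had 4070, 2835 and 2310 against 7012, 5787 and 7351. NAP1L3, of the nucleosome assembly protein family, had 10650, 11190 and 8955 against 18030, 19650 and 24180. WHR1 had a change of -1.73 ± 0.38, with -0.45 in its other probe set. All of these genes had lower values in each deprived layer than in any non-deprived one, as they were chosen to.

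On the higher side the genes included growth factor, adhesion and glial genes. IGF1, insulin-like growth factor 1, had 2574, 1703 and 2441 in layers 2, 3 and 5 and 944, 808 and 1030 in layers 1, 4 and 6. The non-deprived values lay close together and the deprived ones above them in both classes, with a change of 1.26 ± 0.31. Its other probe set had 0.10. MOBP, a structural protein of central myelin, had 26850, 29910 and 33120 deprived and 12840, 18030 and 19890 non-deprived. The lowest MOBP value was that of layer 1, and the change was 0.84 ± 0.22, with 0.33 in its other probe set. EVI2A, a membrane protein gene used here as an oligodendrocyte marker, had 1233, 1732 and 1942 against 417.1, 708.6 and 1028.

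CLDN15, a claudin of tight junctions, had 1161, 1531 and 1700 deprived and 221.2, 676.5 and 333.8 non-deprived, a change of 1.97 ± 0.43. EFNB3, a membrane-bound ephrin that guides axons, had 1608, 1553 and 1172 against 198.6, 934.5 and 196.9. Layers 1 and 6 were near the bottom of the scale for EFNB3, while layer 4 came within reach of the deprived layer 5. GAS1, a surface co-receptor for Hedgehog ligands, had 1895, 1911 and 1914 against 725.9, 293.5 and 1073, so its deprived values nearly coincided. PLCB1, a phospholipase C that acts downstream of G protein-coupled receptors, had 10380, 16460 and 10660 against 4919, 5305 and 7173 (1.09 ± 0.27), but -0.10 in its other probe set. The transcription factors TFAP4 and TCF4 had changes of 1.89 ± 0.46 and 1.14 ± 0.30, and the 5 other probe sets of TCF4 had 0.39 to 0.73. SH3BP5, an SH3-domain binding protein, had 1.08 ± 0.25, but 0.32 in its other probe set. CDK19, a kinase of the Mediator complex, had 1.03 ± 0.26, with 0.51 in its other probe set. MCTP1, a calcium-binding C2-domain protein, had 1.51 ± 0.35.

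Layer 3, the deprived layer with a low GAPDH ratio, differed from the mean of layers 4 and 6 by 0.66 to 1.86 for the 12 higher genes and by -2.31 to -0.70 for the 12 lower ones. These are single-sample differences, and their sign was fixed by the choice of genes whose groups do not overlap.

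**Figure D2:**
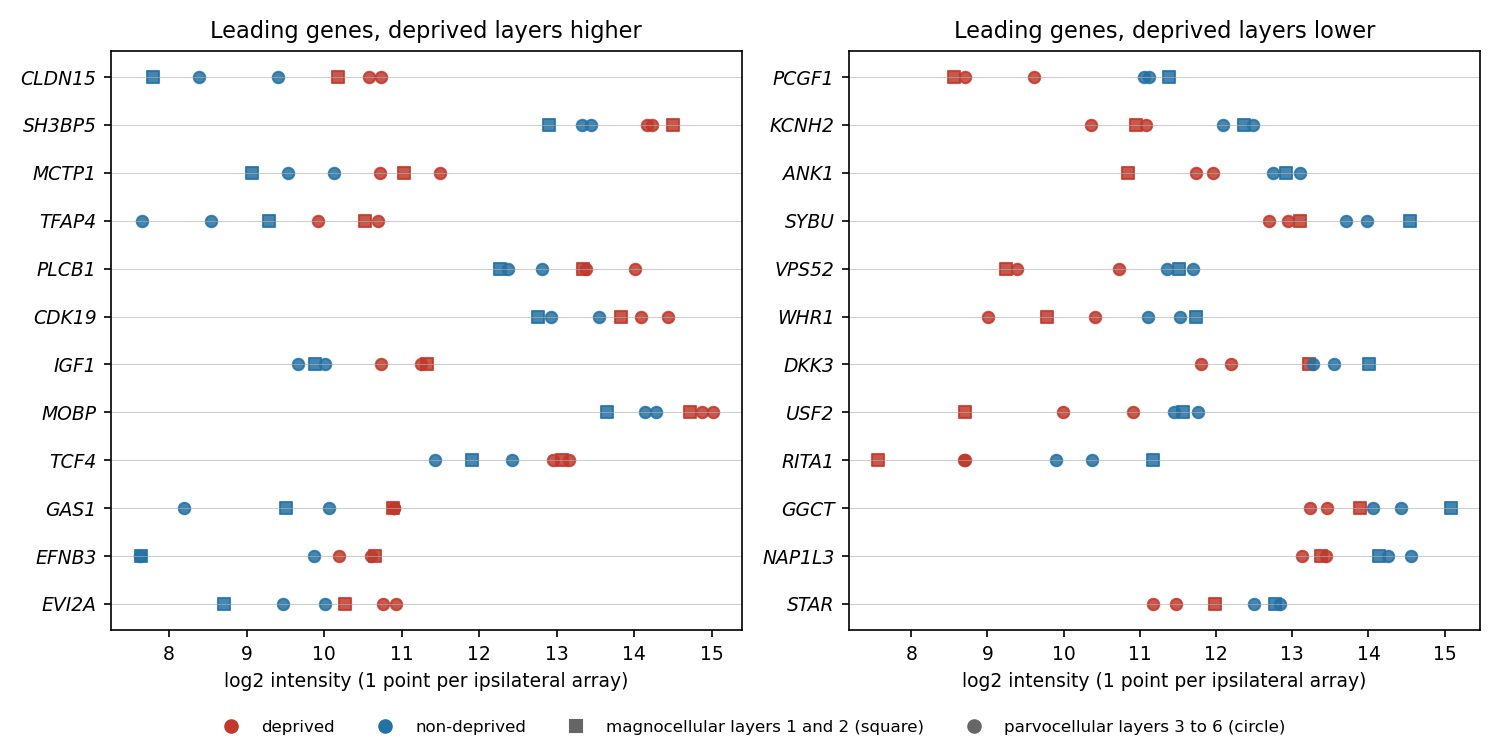
Log2 intensity (x axis) of the 12 genes of smallest p with deprived layers higher (left) and of the 12 with deprived layers lower (right), 1 point per ipsilateral array. Red marks deprived and blue non-deprived layers, squares magnocellular and circles parvocellular layers; by the choice of these genes the groups do not overlap, and the gap is narrowest for DKK3, where layer 2 lies next to layer 4.

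A gene outside this choice had the lowest change of all. LGI2, a secreted leucine-rich repeat protein of neurons, had 2419, 150.8 and 256.4 in layers 2, 3 and 5 and 3163, 1776 and 2195 in layers 1, 4 and 6. It was near the bottom of the scale in both deprived parvocellular layers, while the deprived magnocellular layer 2 lay within the non-deprived range, so the groups overlapped. The change was -2.35 ± 0.52 (limma adjusted p = 0.596), and LGI2 was singled out after its values were seen. It passed without layer 1 (-3.33, limma adjusted p = 0.0489) and without layer 2 (-3.33, limma adjusted p = 0.0391). Both of these fits compare layers 3 and 5 with layers 4 and 6, so they are not separate results. In the fit of the parvocellular layers alone no probe set passed (limma, smallest adjusted p 0.207). The contralateral change of LGI2 was -0.08.

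The contralateral arrays gave a separate measure of deprivation, with no sample in common. There, 60 of the 11105 probe sets passed (0.54%; 43 higher, 17 lower, limma), and 1644 had an unadjusted p under 0.05. Of the 60, 38 had the same sign on the ipsilateral side, and 7 had ipsilateral groups that did not overlap in the same direction. The spread was wider on the ipsilateral side, with a median residual SD of 0.387 log2 units against 0.25 contralaterally, and a median standard error of a change of 0.340 against 0.218. Contralateral groups did not overlap in 7.69% of probe sets with deprived layers higher and in 7.64% with deprived layers lower. Of the ipsilateral probe sets with higher non-overlapping groups, 12.9% were also higher and non-overlapping contralaterally and 3.89% lower. Of the lower ones, 15.1% were also lower and 4.24% higher. Across all probe sets the changes of both sides had a correlation of 0.149, as a description over features of the same arrays and scaling, and 54.5% had the same sign.

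Neighbouring layers differed in unlike ways on the ipsilateral side. The log2 differences of layer 2 minus 1, 3 minus 4 and 5 minus 6 had correlations across probe sets of 0.01, -0.01 and -0.04 between the pairs. The matching deprived minus non-deprived differences on the contralateral side had 0.25, 0.15 and 0.22. All 3 ipsilateral differences were positive in 14.2% of probe sets (1576) and negative in 10.6% (1173), against 17.7% and 18.0% contralaterally. The median size of the difference was 0.527 between layers 2 and 1, 0.351 between 3 and 4, and 0.464 between 5 and 6. Contralaterally it was 0.298 to 0.322.

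Genes that earlier results of these data had named over both hemispheres had the same sign on each side. They were chosen for that difference, in part on these arrays, so their ipsilateral values are a description. HRK, a BH3-only gene that promotes apoptosis, had 1203, 4551 and 4732 in layers 2, 3 and 5 and 720.4, 1671 and 697.6 in layers 1, 4 and 6. Both deprived parvocellular layers were high, but the deprived magnocellular layer 2 lay below the non-deprived layer 4, so the groups overlapped. Its change was 1.65 ± 0.39 (limma adjusted p = 0.598), against 2.14 ± 0.21 contralaterally (limma adjusted p = 0.00152). PIK3R1, a regulatory subunit of phosphoinositide 3-kinase, had 5494, 5885 and 5425 against 1186, 4547 and 3165. Its groups did not overlap, layer 4 being the nearest, and its change was 1.12 ± 0.35, with 0.75 in its other probe set, against 2.17 contralaterally.

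BRINP3, a neural gene that restrains cell division, had 1095, 1557 and 2925 in the deprived and 554.4, 818.7 and 822.3 in the non-deprived layers, a change of 1.25 ± 0.35 (1.52 contralaterally). KLF4, a zinc-finger transcription factor, had 1094, 1953 and 2034 against 593.7, 1143 and 1003, and ADAMTS3, a secreted metalloprotease, 1037, 2788 and 3556 against 673.4, 1504 and 1997. For KLF4 and ADAMTS3 layer 2 lay within the non-deprived range. NQO2, a quinone reductase, had 7566, 5523 and 3903 against 24370, 15910 and 7408. Its change was -1.38 ± 0.31 (-0.97 contralaterally), although layer 6 lay just below layer 2. CRH, corticotropin-releasing hormone, had 29760, 14120 and 6623 against 49190, 19330 and 26560, so its magnocellular layers were higher than its parvocellular ones and the groups overlapped. The changes of its 2 probe sets were -1.06 and -1.01.

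The leading ipsilateral genes had mixed signs on the contralateral side. Of the 12 higher genes, 6 had a positive and 6 a negative contralateral change. The contralateral groups did not overlap for 1 of them, PLCB1, which was higher (0.83). Of the 12 lower genes, 5 had a positive and 7 a negative contralateral change, and the groups did not overlap for 3, PCGF1 (-1.54), VPS52 (-0.42) and RITA1 (-0.94), all lower. For CLDN15 and EFNB3 the contralateral changes were -0.63 and -0.86, opposite in sign to the ipsilateral ones.

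**Figure D3:**
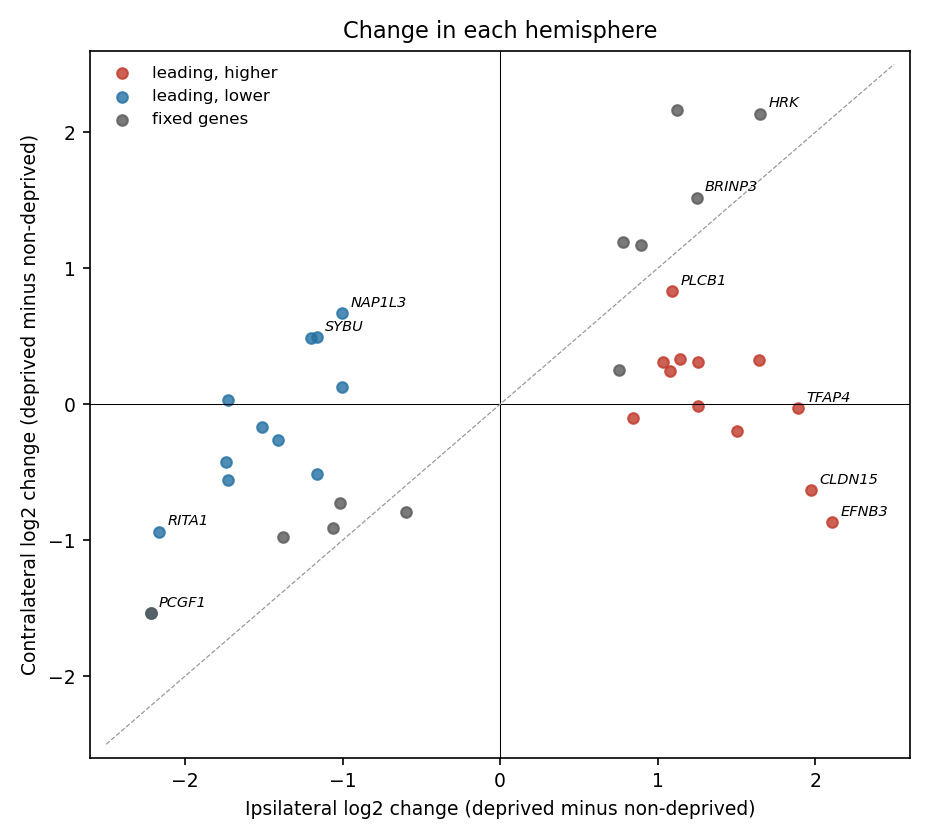
Log2 change with deprivation on the ipsilateral (x axis) and the contralateral side (y axis), 1 point per probe set, for the 12 leading higher genes (red), the 12 leading lower genes (blue) and the genes named in earlier results (grey). The dashed line marks equal changes; PCGF1, which belongs to both choices, lies lowest on both axes, and EFNB3 and CLDN15 have opposite signs on the 2 axes.

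The difference in the deprivation effect between the hemispheres was tested in 1 fit over all 12 arrays, and no probe set passed (limma, 0 of 11105, 0%; smallest adjusted p 0.344; 730 with an unadjusted p under 0.05). This contrast also compares layers 2, 3 and 5 with layers 1, 4 and 6 over both hemispheres, and eye of input and hemisphere cannot be told apart in it. The genes of smallest p with a more positive ipsilateral change were CLDN15, EEF2, CDCA4, CDC42EP2 and SPN. For EEF2, the elongation factor that moves the ribosome along the mRNA, the ipsilateral change was 0.36 and the contralateral one -1.49. The ipsilateral values of EEF2 were 439.6, 1992 and 2772 deprived and 485.4, 1329 and 1783 non-deprived, so the ipsilateral groups overlapped.

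The genes of smallest p with a more negative ipsilateral change were ATXN1, ATP1B3, NAP1L3, PDCD5 and GGCT. ATP1B3, a beta subunit of the sodium pump, had 18730, 16450 and 14730 in layers 2, 3 and 5 and 38700, 26140 and 24310 in layers 1, 4 and 6. These groups did not overlap, and the change was -0.81 ± 0.22 against 0.36 contralaterally. ATXN1, ataxin 1, had 2214, 1543 and 1257 against 2170, 3648 and 3595. The deprived values were lower in its parvocellular layers and nearly equal in its magnocellular layers, and the contralateral change was 1.06. Its other probe set had 0.22 ipsilaterally and 0.18 contralaterally. Without layer 2 the difference passed for 3 probe sets: ATXN1 (-2.39), LGI2 (-3.27) and a second probe set of DKK3 (-2.58).

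Genes of the respiratory chain and ATP synthase, which make most of a neuron's ATP, were mostly lower in deprived layers. No member of any list below passed over all probe sets. Many lists were measured only in part. Of those listed, 24 of 44 voltage-gated channel, 17 of 31 apoptosis, 19 of 34 growth factor and 11 of 20 interneuron genes were measured. Beside the counts that follow, groups did not overlap in 6.78% of the 7285 genes with deprived layers higher and in 5.09% with deprived layers lower. All 14 measured ATP synthase genes had a negative change (median -0.304, or -0.351 relative to all genes), and 4 had groups that did not overlap. With quantile normalization 13 of 14 were negative, and without layers 2 and 5, 11 of 14 (median -0.35). ATP5MC3, a subunit of the rotor ring, had 41320, 36006 and 44307 in layers 2, 3 and 5 and 63185, 55226 and 60215 in layers 1, 4 and 6. Every deprived layer lay below every non-deprived one, with a change of -0.56 ± 0.20, and the other probe set had -0.23. Contralaterally 13 of 14 were negative, with the same median of -0.304.

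Of 28 complex I genes 21 were negative (median -0.212, or -0.26 relative to all genes, and -0.252 without layers 2 and 5), and 3 had groups that did not overlap, all lower, among them NDUFAB1 (-0.64 ± 0.26) and NDUFA10 (-0.57 ± 0.30). The contralateral median was -0.266. Of 22 genes of complexes II to IV 13 were negative (median -0.204, or -0.252 relative to all genes, and -0.16 without layers 2 and 5), and 5 were lower with no overlap. UQCRC1, a core subunit of complex III, had 12368, 14308 and 17346 deprived and 35079, 21475 and 23314 non-deprived (-0.84 ± 0.26). SDHC, a membrane anchor of complex II, had 5165, 4786 and 5303 against 14235, 7945 and 6982. In both genes layer 1 was by far the highest. The contralateral change of SDHC had the opposite sign (0.43). Its probe set is of a kind that can also bind related transcripts, as are those of SH3BP5, EFNB3, USF2, ALDOA and RPL3, among others.

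Glycolysis genes lay the same way. Of 20 measured, 16 were negative (median -0.310, or -0.358 relative to all genes; 14 with quantile normalization and 12 without layers 2 and 5, where the median was -0.139). Groups did not overlap for 4, all lower. Contralaterally 16 of the 20 were also negative (median -0.241). ALDOA, the aldolase of glycolysis, had 20446, 27927 and 44603 in layers 2, 3 and 5 and 55629, 51391 and 48144 in layers 1, 4 and 6, so that layer 5 was close to the non-deprived layers and layer 2 far below. PKM, pyruvate kinase, had a change of -1.05 ± 0.31, with 0.26 in its other probe set. PFKL, a phosphofructokinase, was positive (0.82 ± 0.55) and varied widely. Of 13 ion pump genes 10 were negative (median -0.169, or -0.216 relative to all genes, and -0.224 without layers 2 and 5), ATP1B3 being the one whose groups did not overlap.

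Proteasome genes, whose products degrade ubiquitin-tagged proteins, had the most negative median of the lists over all 6 arrays, while without layers 2 and 5 that of ATP synthase was more negative (-0.35 against -0.292). Of 26 measured, 24 were negative (median -0.401, or -0.449 relative to that of all genes), and 8 were lower with no overlap between the groups. The count of negative members was 26 after median centring, 23 with quantile normalization and 19 without layers 2 and 5. PSMB3, a beta subunit of the catalytic core, had 2724, 2108 and 2603 in layers 2, 3 and 5 and 6821, 3203 and 4267 in layers 1, 4 and 6. The 3 deprived layers were alike, and layer 1 was highest, with a change of -0.88 ± 0.29. PSMA4, an alpha subunit, had 6779, 5303 and 6925 against 17214, 7897 and 8570 (-0.74 ± 0.28). PSMD14, the deubiquitinating subunit of the cap, was positive (0.19 ± 0.25). The contralateral median of the list was -0.154, with 19 of 26 negative, and PSMA4 was positive there (0.45).

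Heat shock and chaperone genes, which fold proteins, had 19 of 25 negative (median -0.252, or -0.3 relative to all genes, and -0.125 without layers 2 and 5). HSPH1, a cytosolic chaperone, had 12100, 10396 and 6737 deprived against 17963, 13383 and 15154 non-deprived. The deprived layer 2 approached layer 4, and the groups did not overlap. Contralaterally HSPH1 had a change of 0.20. CRYAB, a small heat shock protein, had 0.37 ± 0.32.

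Cytosolic ribosomal proteins pointed opposite ways in the hemispheres. Of 39 measured, 30 were positive on the ipsilateral side (median 0.165, or 0.118 relative to all genes) and 32 negative on the contralateral side (median -0.186), where the median of all genes was -0.0165. After median centring 11 of the 39, or 28.2%, were positive ipsilaterally (median -0.0971), a share close to that of all genes in that setting. With quantile normalization 32 were positive, and without layers 2 and 5 also 32 (median 0.270). Groups did not overlap for 3 higher genes and 1 lower one. RPS27 had 9958, 17500 and 29772 in layers 2, 3 and 5 and 8299, 10621 and 13287 in layers 1, 4 and 6, so the high value of layer 5 led the change (0.72 ± 0.28; -0.58 contralaterally). RPS19 had 8439, 12116 and 9791 against 7284, 6757 and 7855 (0.46 ± 0.25). RPL3 went the other way (-0.71 ± 0.28), with 26747 and 32737 in layers 2 and 5 and 53037 to 73922 in the other 4. Layer 3 was within the non-deprived range for RPL3, and the change was 0.05 without layers 2 and 5. The test of the difference between hemispheres passed for 0 of the 39 genes.

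Synaptic genes, which load and release transmitter vesicles, were negative in 24 of 29 (median -0.176, or -0.223 relative to all genes; 23 with quantile normalization), but the median was 0.0297 without layer 2. Without layers 2 and 5 it was -0.153, with 17 negative. VAMP1, a vesicle fusion protein strong in thalamic relay neurons, had 25558, 19448 and 30902 deprived against 44087, 36075 and 39127 non-deprived. The groups did not overlap, the change was -0.67 ± 0.23, and its other probe set had -0.43. On the contralateral side VAMP1 had -0.60. SYN1, synapsin 1, had 3787, 5297 and 4627 against 7158, 17451 and 5398, where layer 4 alone was high. Genes of the neuronal cytoskeleton were negative in 19 of 28 (median -0.152, or -0.199 relative to all genes; 16 with quantile normalization). The median was -0.0373 without layers 2 and 5 and -0.0525 without layer 2 alone. MAP1A, a microtubule-associated protein, had 14359, 19007 and 20680 against 26472, 34752 and 24410 (-0.66 ± 0.23), with 0.36 in its other probe set. NEFM, the medium neurofilament, was higher in magnocellular layers, with 71021 deprived and 115110 non-deprived. In parvocellular layers it had 34514 and 37282 deprived against 60270 and 53505 non-deprived (-0.67 ± 0.19). Within each class the deprived layers were lower. STMN4, a stathmin that binds tubulin, was positive (0.91 ± 0.31). MAP2 was positive too (0.57 ± 0.36), and it was -0.67 contralaterally.

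Activity-regulated genes, whose transcription follows neuronal firing, were split, with 15 positive and 9 negative. Of 36 listed, 33 were on the array and 24 were measured. Their median was 0.0916, or 0.0439 relative to all genes. It was -0.171 after median centring and 0.175 without layers 2 and 5. NPTX2, a secreted pentraxin that clusters AMPA receptors, had 1689, 3370 and 3071 in layers 2, 3 and 5 and 5220, 5648 and 3758 in layers 1, 4 and 6. Its groups did not overlap, layer 6 being close to layer 3 (-0.89 ± 0.32; -0.23 contralaterally). EGR1, an immediate early transcription factor, had 1078, 4203 and 3388 against 1720, 3210 and 2353, which overlapped fully (0.08 ± 0.33). EGR3 had a change of 0.83 ± 0.36, against 0.76 contralaterally. EGR4 had 0.71 ± 0.37, against -0.42 contralaterally, and DUSP1, a phosphatase of MAP kinases, -0.33 ± 0.28.

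Of 14 glutamate receptor genes, ionotropic and metabotropic, 9 were positive (median 0.166, or 0.118 relative to all genes; -0.0968 after median centring and 0.233 without layers 2 and 5). Of these, 2 were higher with no overlap. GRIA1, an AMPA receptor subunit, had 1867, 1169 and 998.7 deprived against 835.4, 611.4 and 424.7 non-deprived (1.11 ± 0.36), and 0.20 contralaterally. GRM3, a metabotropic receptor, had 6113, 7659 and 6405 against 3821, 3953 and 4156. Those non-deprived values were nearly equal and the change was 0.75 ± 0.26. GRIA2, the AMPA subunit that limits calcium entry, had -0.20 ± 0.22. Of 11 genes of GABA synthesis, transport and receptors 6 were positive, and 0 had groups that did not overlap. Their median was 0.0439, -0.219 after median centring, -0.028 with quantile normalization, 0.122 without layers 2 and 5 and -0.0795 without layer 2 alone, and GABRA4 had -0.73 ± 0.34. Voltage-gated channel genes numbered 15 positive and 9 negative, with a median of 0.0538 that was -0.209 after median centring, -0.0913 with quantile normalization and -0.063 without layers 2 and 5. KCNH2 and KCNA4 (-0.74 ± 0.38) were lower with no overlap. KCNJ9 (0.38 ± 0.45), which the list also held although it is an inwardly rectifying and not a voltage-gated channel, was higher with no overlap.

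Growth factor genes and their receptors were positive in 12 of 19 (median 0.343, or 0.295 relative to all genes; 11 after median centring, and 13 without layers 2 and 5), with 4 higher and 1 lower without overlap. IGF1 and PIK3R1 are given above. FGF13, an intracellular member of its family that binds sodium channels, had 3485, 6256 and 4158 deprived against 1919, 2854 and 2603 non-deprived (0.89 ± 0.29; 1.17 contralaterally). NTRK2, the receptor for brain-derived neurotrophic factor, had 4924, 3038 and 2365 against 2179, 2186 and 2257. Its groups just separated, and layer 2 was highest (0.57 ± 0.30). Apoptosis genes had 8 positive and 9 negative (median -0.0827, -0.0253 without layers 2 and 5 and 0.127 without layer 2 alone), with BCL2, which blocks cell death, at 0.72 ± 0.32 in the probe set of highest mean and -0.38 in another. Genes of MHC class I and complement had 7 positive and 7 negative (median -0.0521), but 11 positive and 3 negative without layer 2 (median 0.28), and 10 and 4 without layers 2 and 5. TAPBP, which loads peptides onto MHC class I, had 315.9 in layer 2 and 2056 to 3447 in the other 5 layers, so its change of -1.08 ± 0.55 came from 1 array and was 0.10 in parvocellular layers alone.

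Oligodendrocyte markers had the most positive median of the lists with more than 2 members. All 17 that were measured, of 24, had a positive change (median 0.612, 0.565 above that of all genes), and 6 were higher with no overlap. The count of positive members was 16 with quantile normalization, 13 after median centring (median 0.35) and 16 without layers 2 and 5 (median 0.772). The summed intensity of the 17 was 173200 to 247300 in the deprived and 105500 to 160400 in the non-deprived layers, which did not overlap. QKI, an RNA-binding protein needed for myelination, had 40686, 42000 and 33628 in layers 2, 3 and 5 and 15427, 14694 and 30536 in layers 1, 4 and 6. Layer 6 came near the deprived layer 5, and the change was 1.02 ± 0.28, with -0.12 to 0.61 in the other 4 probe sets. TF, transferrin, had 15657, 7587 and 13923 against 6419, 4809 and 7061 (0.97 ± 0.30). OLIG2, a transcription factor of the lineage, had 1430, 1023 and 1138 against 656.6, 756.6 and 433.1. These genes were thus higher in each deprived layer, with layer 3 close to the non-deprived layer 6 for TF.

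MOG, a protein of the outer myelin surface, had 4756, 3677 and 1784 deprived against 1232, 1106 and 2077 non-deprived. Layer 6 lay above layer 5, so the groups overlapped. MBP, myelin basic protein, overlapped (0.29 ± 0.21), with 34780 in layer 2 and 30138 in layer 1, and 73296 in layer 3 as its highest value. The contralateral median of the list was 0.150, with 13 of 17 positive. For MOBP and UGT8, an enzyme of myelin lipid synthesis, the contralateral changes were -0.10 and -0.25. The part of these cells' RNA in the differences of other genes was not tested.

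Microglia, vessel and interneuron markers had positive medians too. Of 9 microglia markers 8 were positive (median 0.411, or 0.363 relative to all genes; 0.513 without layers 2 and 5 and -0.130 contralaterally), and their sum was 26570 to 29400 deprived against 23030 to 25700 non-deprived. CX3CR1, the fractalkine receptor, had 4964, 9146 and 9968 against 4403, 4905 and 4415, which separated the parvocellular layers widely and the magnocellular ones barely (0.75 ± 0.28). It was the 1 microglia marker of 9 (11.1%) that was higher with no overlap, against 6.78% of all genes. SPP1, osteopontin, was negative (-0.38 ± 0.29). Of 14 endothelial and mural markers 13 were positive (median 0.254, or 0.207 relative to all genes; 0.411 without layers 2 and 5), and 7 after median centring (median -0.00812, against -0.215 for all genes). Their sum was 28770 to 29470 deprived against 20580 to 25060 non-deprived. Only 1 of the 14 (7.14%) was higher with no overlap, against 6.78% of all genes. The contralateral median of this list was 0.00429, with 8 of 14 positive. RGS5, a pericyte gene, had 9858, 7482 and 8036 against 3500, 4857 and 7409, with layer 6 just below layer 3. The probe set of RGS5 described here had 0.74 ± 0.31, and the other 2 had -1.01 and 1.00. TEK, the angiopoietin receptor, had 1321 in layer 2 and 164.8 in layer 1, while its parvocellular layers overlapped (455.3 to 661.2), and its change of 0.96 ± 0.64 was -0.06 in those layers alone. HBB, a haemoglobin chain that marks blood, was highest in layer 3 (13076) and ran from 3419 to 6590 in the other 5.

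Of 11 interneuron markers 9 were positive (median 0.504, or 0.457 relative to all genes; 0.459 without layers 2 and 5), and 4 were higher with no overlap, NPY, RELN, ERBB4 and TAC3. NPY, neuropeptide Y, had 1270, 2401 and 860.1 deprived against 518.6, 768.4 and 514.5 non-deprived (1.23 ± 0.43; -0.36 contralaterally). RELN, reelin, had 10677, 11730 and 8366 against 7297, 4100 and 5520 (0.89 ± 0.27; 0.70 contralaterally). CRH and PVALB, parvalbumin, were negative (-1.06 and -0.49). Summed, the 11 markers overlapped, with 78450 to 110700 deprived and 89030 to 126100 non-deprived. Contralaterally 6 of the 11 were positive (median 0.0872). Koniocellular markers, of relay neurons that lie between the main layers, had 4 of 6 positive (median 0.492, or 0.444 relative to all genes; 0.472 without layers 2 and 5). CALB1 and CCK stood on both the koniocellular and the interneuron list, so these lists were not separate. The contralateral median of the koniocellular list was 0.0868, with 4 of 6 positive. GRB14, an adaptor of the insulin receptor, had 1381, 1862 and 1226 against 550.1, 733.8 and 1088. Astrocyte markers had 11 of 17 positive (median 0.136, or 0.088 relative to all genes; 0.362 without layers 2 and 5), and 6 after median centring (-0.127). Groups did not overlap for 1 higher astrocyte gene, GFAP, and 1 lower one, CLU. GFAP, the filament of reactive astrocytes, had 3038, 6229 and 4262 against 2335, 2490 and 2974, with layer 2 barely above layer 6 (0.74 ± 0.29). CLU, clusterin, had a change of -0.46 ± 0.24, with -0.17 and 0.00 in its other probe sets. The contralateral median of the astrocyte list was 0.236, with 15 of 17 positive. Relay neuron markers had 4 of 10 positive, with a median of -0.165 (-0.213 relative to all genes). That median was 0.0301 without layer 2 and -0.0751 without layers 2 and 5. On the contralateral side it was -0.348, with 2 of 10 positive.

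**Figure D4:**
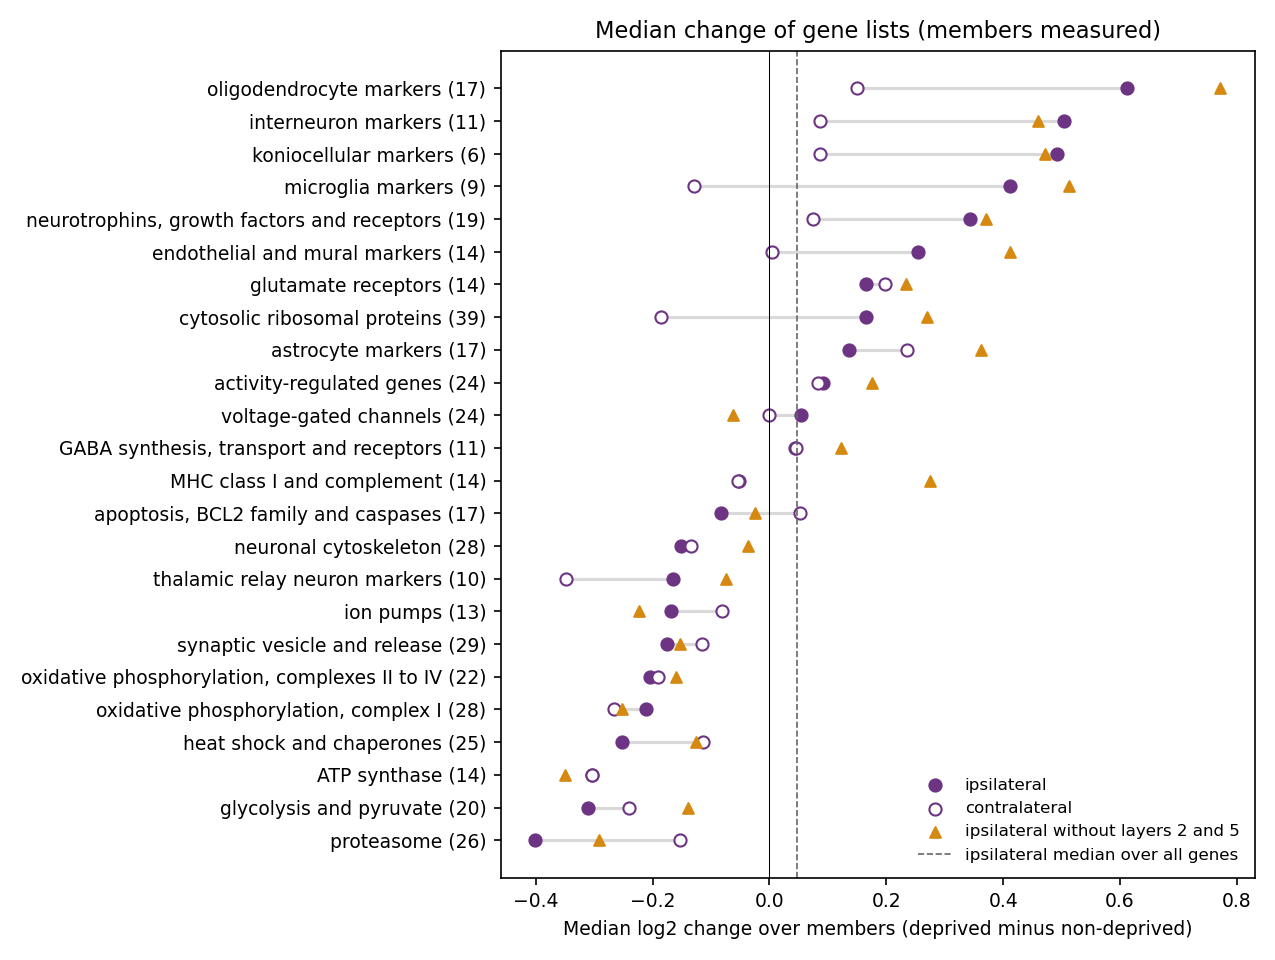
Median log2 change over the measured members of each gene list (number in brackets), with filled circles for the ipsilateral side, open circles for the contralateral side and triangles for the ipsilateral side without layers 2 and 5; the dashed line is the ipsilateral median of all genes, 0.0477. Oligodendrocyte markers lie highest (0.612) and proteasome genes lowest (-0.401) among the ipsilateral medians over all 6 arrays; after median centring the ribosomal, activity-regulated, glutamate receptor, GABA, voltage-gated channel, astrocyte and endothelial lists have negative medians, as all genes together do (-0.215).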

How the data were processed

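The authors deposited a table of linear intensities, 1 value for each of 22283 probe sets on each array; the array was a human Affymetrix design hybridised with macaque RNA. Its software was not given in the sources used here, and no detection calls were used. Human probes can bind macaque RNA less well, so changes were taken within a probe set, and sums over marker probe sets, in which the brightest weigh most, were compared only between arrays. Array means trimmed by 2% ran from 1500.45 to 1500.6, so no further scaling was applied. Intensities were floored at the 20th percentile of all values (110.8) before log2 was taken. The 11105 probe sets other than 68 controls with a mean at or above the median over all arrays were tested. Names came from the platform's annotation: 19065 probe sets named 1 gene, 1043 several and 2107 none here, and 94.3% of the symbols were in the macaque gene tables. No sequences or coordinates were used.

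The 6 ipsilateral arrays were fitted for deprivation and cell class (3 residual degrees of freedom) with limma 3.58.1 in R 4.3.3 (lmFit, then eBayes using a mean-variance trend; two-sided tests, Benjamini-Hochberg adjustment over all probe sets). The hemisphere difference was fitted over 12 arrays (7 residual degrees of freedom). The small number of arrays limits the precision: on 10 simulated sets with 200 changed probe sets of 11105, the ipsilateral fit recovered 2.4% of those changed by a log2 of 1, 20.6% at 1.5, 44% at 2 and 69.8% at 3, while 2.98% of its calls were false. The simulated errors were independent and normal, with the same spread on every array of a probe set. Among the real arrays layer 2 stood apart, so these shares need not hold for them. Gene lists kept 1 probe set per gene, that of the highest mean, and were given no test. Named genes were, as none passed, the 12 of smallest p in each direction with groups that did not overlap, the 3 of smallest p in each list, 8 genes of earlier results and, for the hemisphere difference, the 5 of smallest p in each direction. Other list members named were chosen for their roles after their values were seen. The members and lists were chosen with earlier results of these data known. Other settings changed the scaling, filter, floor, trend, covariates, block and the arrays included.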

Additional observations from a re-analysis of the deposited data

How the results depend on the processing

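The count of probe sets past the threshold was 0 under every other scaling, filter, floor and covariate tried and in parvocellular layers alone, and 0 to 1 without any single array. With layers 2 and 5, of highest GAPDH ratio, left out it was 4: KCNJ4 (4.77), PLPP3 (2.2), SPARCL1 (2.05) and LGI2 (-3.71). That fit had 1 residual degree of freedom and layer 3 as the lone deprived sample, assumed to vary like the others, and KCNJ4 lay under the floor in layer 6. The 699 probe sets of unadjusted p under 0.05 became 1250 without a filter, 419 with a stricter one, 437 with the GAPDH and 1088 with the ACTB ratio as a covariate, 303 without both layers, 1262 with the spread shared with the contralateral arrays (smallest adjusted p 0.0911) and 496 to 1008 without single arrays. Probe sets with deprived layers higher and no overlap, 746 of 11105, became 206 after median centring. They were 1511 of 22215 without a filter and 275 of 5536 with a stricter one. Those lower became 1318 after median centring. The higher share of unadjusted calls was 66.6% without a filter, 32.7% with a stricter one, 58.9% without a trend, 35.4% without layer 3 and 61.8% without layer 4. With layers 2 and 5 left out, the hemisphere difference was -3.65 for LGI2. That difference passed for 0 to 3 probe sets without single ipsilateral arrays. Of 2051 values of 104 named probe sets under 20 settings, 8 changed sign: RPL3 (0.0479) and TEK (-0.146) without both layers, and TAPBP (0.0993) and TEK (-0.0642) in parvocellular layers alone. Without single arrays TAPBP ranged from -1.56 to 0.0993 and TEK from -0.0642 to 1.4. The cause of these shifts was not tested. The labels give no replicate numbers that pair samples; with neighbouring layers as a block (2 residual degrees of freedom) 0 probe sets passed and 585 had an unadjusted p under 0.05. Without layers 1 or 2 the other magnocellular array is taken up by the cell class term, so these fits compare parvocellular layers.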

Other observations

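PDCD5, a gene linked to programmed cell death, had intensities of 884.3, 825.4 and 668 in the deprived layers 2, 3 and 5 and 2470, 1272 and 1541 in the non-deprived layers 1, 4 and 6. All deprived values lay below all non-deprived ones, with a change of -1.10 ± 0.33 (limma adjusted p = 0.708) against 0.60 on the contralateral side. CDCA4, a nuclear regulator of cell cycle genes, had 1332, 1513 and 1517 against 644.2, 743.5 and 597.8, a change of 1.14 ± 0.34, and -0.37 contralaterally. In CDCA4, too, the groups did not overlap.

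PLPP3, a lipid phosphatase of astrocytes, and SPARCL1, a matrix protein of astrocytes, were singled out after their values were seen. PLPP3 had 6288, 28230 and 25910 in layers 2, 3 and 5 and 16950, 11620 and 3241 in layers 1, 4 and 6, so it was high in the deprived parvocellular layers and low in the deprived magnocellular one. Its change was 0.95, with 0.38 and 0.26 in its other probe sets. SPARCL1 had 29800 in layer 3 and 6214 to 8750 in the other 5 layers. KCNJ4, an inwardly rectifying potassium channel, had 6323 in layer 3 and at most 727 elsewhere. Layer 3 was the highest of the 6 layers for all 3 genes. They were picked from the fit in which layer 3 was the lone deprived sample. A layer 3 above layers 4 and 6 therefore follows from that choice.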
